A study of Mus musculus with 12 samples.

Results

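The genes described here encode the machinery that fills, docks, fuses and retrieves synaptic vesicles, and the measurement was chromatin accessibility by ATAC-seq, in which the transposase Tn5 cuts and tags open DNA. The list held 40 genes. Peaks of all 12 libraries were merged wherever they overlapped by 1 bp or more, which gave 263562 regions on chromosomes 1 to 19, X and Y, and a region was assigned to a listed gene when it lay in the gene body or within 5 kb upstream of a transcript start (GENCODE vM21, genome build GRCm38). By this rule 913 regions fell at 39 of the 40 genes. No region was found for Rims1, whose locus on chromosome 1 was therefore not analysed here.

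The neurons were primary cortical cultures from embryonic day 18 C57BL/6 mice, without a genetic modification named in the labels. Control cultures received PBS, the second group received preformed fibrils of α-synuclein (PFF) for 7 days, the third received PFF with the LRRK2 kinase inhibitor MLi-2 present for the last 5 days (PFF+MLi-2), and the fourth received PFF with antisense oligonucleotides against Rab5 for the last 3 days (PFF+Rab5 ASO). Each group had 3 biological replicates, and the labels place all 12 libraries in batch 1. Groups given MLi-2 or an oligonucleotide without PFF, or an oligonucleotide without a Rab5 target, were not analysed here, so the agent and its target cannot be told apart.

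Release of neurotransmitter begins when transporters load a vesicle and active zone scaffolds hold it near the calcium channels. Priming factors then assemble SNARE proteins of the vesicle and the plasma membrane, synaptotagmins trigger fusion when calcium enters, and NSF with its adaptors takes the spent SNARE complexes apart. Many of these genes carry neuron-restricted promoters, and the longest of them span very long stretches of intron in which enhancers can lie. Rab5, the target of the oligonucleotides, is a small GTPase of early endosomes, and LRRK2 phosphorylates Rab GTPases.

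The libraries held between 137417 and 184717 peaks, and the typical peak was small, with a median of 16 to 18 fragments at the summit. Read totals were not used, so the depth is known only through these peaks. Peaks were narrower in the PFF+Rab5 ASO libraries (median width 112 to 124 bp) than in the other 9 libraries (127 to 139 bp), and the part of this difference in the results on that group was not tested. The commonest local background, recovered from the fold and p of each peak, was 1.815 to 2.113 fragments there and 1.503 to 1.899 in the others, with overlap. Divided by the smallest peak width, as an estimate of depth relative to the mean library, it was 1.05 to 1.31 there and 0.775 to 1.03 in the others, without overlap. Promoters of the 9 neuronal marker genes carried a peak in all 12 libraries, as did 4 of 5 astrocyte markers, 1 of 3 endothelial markers and 0 of 5 microglial markers. Olig1, Olig2 and Mbp, of the oligodendrocyte lineage, also carried one in all 12, with mean percentiles of 71.2 to 88.7, and Mog had none. Summed over each marker list, the mean promoter percentile ran from 520.1 in PFF to 580.4 in PFF+MLi-2 for neurons, from 273 in PFF to 320.2 in PBS for astrocytes, from 37.4 in PFF+MLi-2 to 70.3 in PFF for endothelium and from 7.28 in PFF+Rab5 ASO to 44.3 in PFF for microglia. For Olig1, Olig2 and Mbp the sum ran from 230.9 in PBS to 237.3 in PFF+Rab5 ASO. The part of other cell types in the results below was not tested.

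Of the 913 regions, 134 were promoters (within 1 kb of a transcript start of the gene), 714 lay in introns, 43 overlapped exons and 22 lay further upstream. A peak was present in all 12 libraries at 74 of 134 promoter regions (55.2%, 95% Wilson interval 46.8 to 63.4) and at 148 of 714 intron regions (20.7%, 17.9 to 23.9). The same shares over all protein-coding genes were 49.9% for promoters and 22.5% for introns. Listed regions were classed by their own gene alone. Introns of all protein-coding genes, here and below, leave out regions at a promoter or exon of any such gene. At the other end, 240 of the 913 regions (26.3%) were seen in a single library, near the 26.6% found over all regions. Intervals and shares of this kind cover counting error only.

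Regions were spread unevenly over the genes. Erc2, a scaffold of 856.1 kb, held 147 regions, the synapsin gene Syn3 held 103 and Syt1, the calcium sensor of fast release, held 76. Together these 3 genes held 326 regions, or 35.7% of the total. Per 100 kb of gene, the range was from 5.31 at Unc13c to 102.7 at Vamp2, a gene of only 3.89 kb. In single libraries the listed genes had from 400 regions (PBS replicate 2) to 553 (PBS replicate 1). The group means were 464.7 ± 79.2 in PBS, 481 ± 33.8 in PFF, 427.7 ± 5.77 with PFF+MLi-2 and 491 ± 38.9 with PFF+Rab5 ASO (SD, n = 3). Their share of all regions was steady, between 0.338% and 0.355% in every library, so the number moved with the length of the peak list.

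All 39 genes with a region had a promoter region open in all 12 libraries. For each gene the promoter region with the highest mean percentile is called the leading promoter, where the percentile is the rank of its fold enrichment over local background within its own library, in %, and tied peaks share a rank. The median over the 39 leading promoters was 91.8. Over the 15554 protein-coding genes with a promoter region it was 90.6, and over 32 of 33 other presynaptic genes (a separate list that holds further synaptotagmins, Rab3 proteins and release regulators) it was 86.7.

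**Figure D1:**
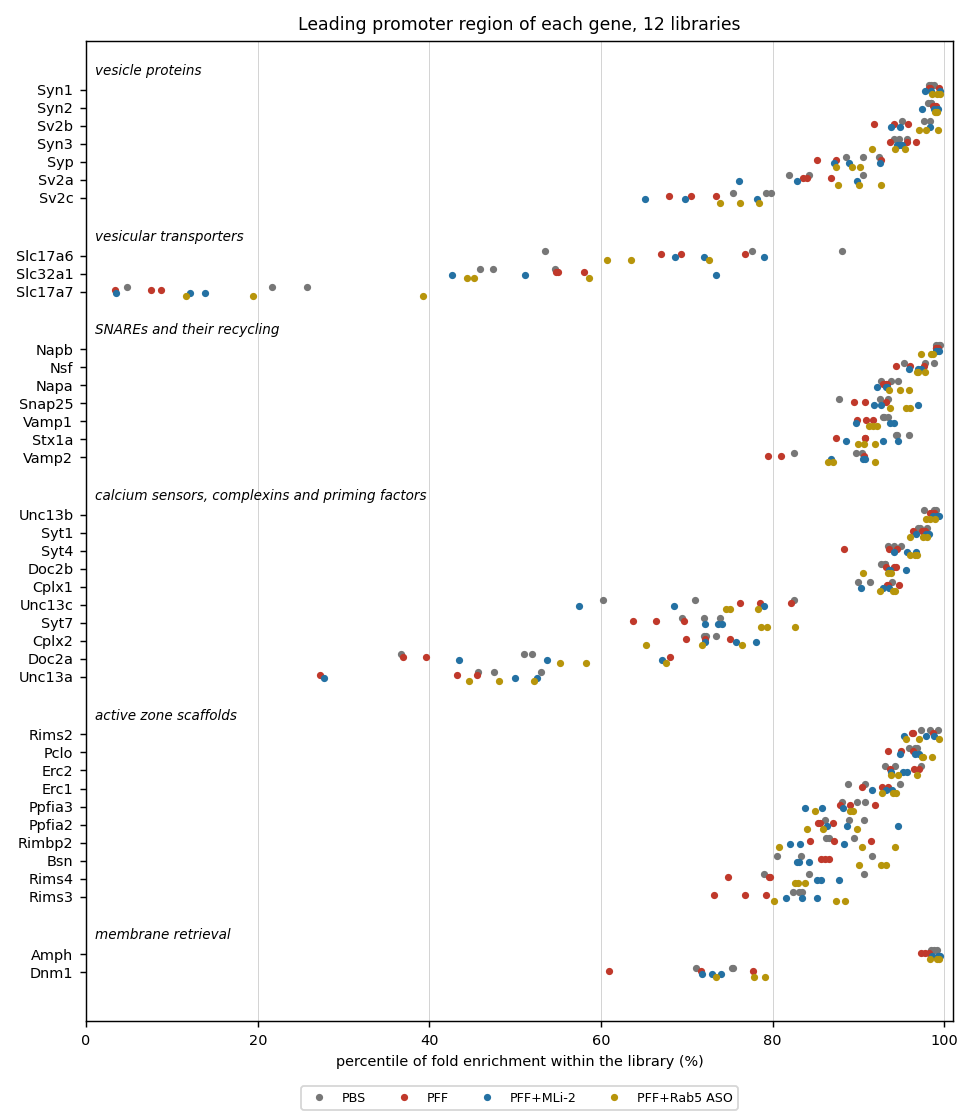
Percentile of fold enrichment within the library (horizontal axis, %) at the leading promoter region of 39 presynaptic genes, grouped by role. Each point is 1 library, coloured by group; most genes lie above 80, while Slc17a7, Unc13a, Doc2a and Slc32a1 lie lowest and points of the 4 groups intermix at most genes.

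Among the vesicle proteins Syn1 and Syn2 led. Synapsins tether vesicles to one another in the reserve pool. The leading promoter of Syn1 (chrX:20920762-20921300) had percentiles of 98.3, 98.4 and 98.8 in PBS, 98.2, 98.4 and 99.4 in PFF, 98.5, 99.5 and 97.8 with PFF+MLi-2, and 99.4, 98.6 and 99.1 in PFF+Rab5 ASO. It thus stood near the top of the list in every library, whatever the treatment. Sv2c, a member of the SV2 family of vesicle glycoproteins, was the lowest of this role, with 79.8, 75.4 and 79.2 in PBS, 67.9, 73.4 and 70.5 in PFF, 78.2, 65.1 and 69.8 with PFF+MLi-2, and 78.4, 76.2 and 73.9 in PFF+Rab5 ASO.

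The Syn1 promoter was the single leading promoter of the 39 with a paired RE1 half-site, the element bound by the neuronal repressor REST, within 200 bp of the summit. The pair was spelled as CAGCACC, 2 free bases and GGNCAG on either strand, and GGNCAG was loosened after the data were seen. The pair is shown because it lies in one of the most open regions of the list. The stretch below is on the strand of the gene (minus), chrX:20921054-20921228, outside annotated exons, read from the RefSeq genome of GRCm38.p6, and capitals mark matches to the motifs searched: a GC box, the RE1 pair and a CRE.
Syn1 promoter: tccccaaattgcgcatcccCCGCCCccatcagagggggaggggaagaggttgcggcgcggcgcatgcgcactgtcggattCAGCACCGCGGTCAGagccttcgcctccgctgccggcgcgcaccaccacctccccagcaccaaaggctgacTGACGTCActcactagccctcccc

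The vesicular transporters had the lowest median leading promoter of the 6 roles (52.6). Slc17a6 (VGLUT2) and Slc17a7 (VGLUT1) load glutamate, and Slc32a1 (VGAT) loads GABA and glycine. At Slc17a6 the percentiles were 88, 53.5 and 77.5 in PBS, 67, 76.8 and 69.3 in PFF, 72, 68.6 and 79 with PFF+MLi-2, and 72.5, 63.5 and 60.7 in PFF+Rab5 ASO. At Slc17a7 (chr7:45163803-45164003) they were 21.6, 25.7 and 4.81 in PBS, 3.41, 8.71 and 7.60 in PFF, 12.1, 3.48 and 13.9 with PFF+MLi-2, and 11.6, 19.5 and 39.2 in PFF+Rab5 ASO. The PFF+Rab5 ASO values at Slc17a7 all lay above the PFF values, but the groups given PBS and the oligonucleotide overlapped and the region passed no test. Slc32a1 ran from 42.7 to 73.4 over the 12 libraries. The fold is a ratio to the local background and not a fragment count. The Slc17a7 promoter held 23 to 35 fragments at its summit, more than the 16 to 18 of the median peak, and that of Unc13a held 47 to 59 fragments at a mean percentile of 44.8.

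The Slc17a7 window is printed as the contrast to Syn1, the lowest promoter of the list beside one of the highest. It covers 136 bases of the plus strand, chr7:45163813-45163948, with 65 exonic bases of the window left out, and the capitals mark 3 GC boxes, of which 2 overlap.
Slc17a7 promoter: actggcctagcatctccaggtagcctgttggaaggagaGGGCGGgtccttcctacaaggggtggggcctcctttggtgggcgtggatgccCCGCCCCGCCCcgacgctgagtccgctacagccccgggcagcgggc

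SNARE genes and their recycling factors were high throughout. Napb, an adaptor that brings NSF to spent SNARE complexes, was the highest promoter of the 39, with 99.3, 99.1 and 99.4 in PBS, 99.1, 99 and 99.2 in PFF, 99, 99.1 and 99.3 with PFF+MLi-2, and 98.4, 97.3 and 98.6 in PFF+Rab5 ASO. The 3 oligonucleotide values at Napb lay below the other 9. Vamp2, the main vesicle SNARE of the forebrain, was the lowest of this role and still ran from 79.4 to 91.9. Between them lay Nsf, Napa, Snap25, Vamp1 and the plasma membrane SNARE Stx1a, with means of 91.8 to 96.8.

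Calcium sensors, complexins and priming factors covered the widest range apart from the transporters. Unc13b (Munc13-2, which opens syntaxin for SNARE assembly) ran from 97.6 to 99.3. Its paralog Unc13a (Munc13-1) had 53, 47.6 and 45.6 in PBS, 43.2, 45.5 and 27.2 in PFF, 50, 52.6 and 27.7 with PFF+MLi-2, and 44.6, 52.2 and 48.1 in PFF+Rab5 ASO. Syt1 lay at a mean of 97.3 and Doc2b, a sensor of spontaneous release, at 93.4, against 52.4 for Doc2a. Of the complexins, clamps and activators of the SNARE complex, Cplx1 lay at 92.8 and Cplx2 at 72.8.

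The active zone scaffolds lay close together. Rims2, which links vesicles and calcium channels, was the highest and ran from 95.3 to 99.4. Rims3 was the lowest, with 83, 83.4 and 82.3 in PBS, 79.2, 76.8 and 73.2 in PFF, 83.4, 85.1 and 81.6 with PFF+MLi-2, and 80.1, 87.3 and 88.4 in PFF+Rab5 ASO, so that the 3 PFF values lay below the other 9. Pclo and Bsn, the giant scaffolds piccolo and bassoon, had means of 96.3 and 86.6. Of the membrane retrieval genes, Amph (amphiphysin, which recruits dynamin) ran from 97.3 to 99.5, and Dnm1, the dynamin that cuts vesicles from the membrane, from 60.9 to 79.1.

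The next question was whether PFF, alone or with either treatment, changed the promoters. For regions with a peak in all 12 libraries (72408, of which 243 were at listed genes and 74 of these were promoters), ranks within each library were turned into normal scores and compared with limma, and a difference of 1 is 1 standard deviation of the ranks. No promoter region of a listed gene passed adjusted p under 0.05 in any of the 6 comparisons. Of 18390 promoter regions of all protein-coding genes, 1.19%, 0.451% and 0.854% passed with PFF+Rab5 ASO against PFF, PBS and PFF+MLi-2. In the other comparisons 0% did. With PFF against PBS, 11 of the 39 leading promoters were higher and the median difference was -0.12. Over 12488 leading promoters of all genes the median was -0.08 and 33.5% were higher, against 28.2% of the listed ones. With PFF+MLi-2 against PFF, 31 of 39 were higher with a median of 0.19 (67.2% and 0.10 over all genes), and with PFF+Rab5 ASO against PFF 26 of 39 with a median of 0.11 (61.4% and 0.07 over all genes). These comparisons share the PFF libraries. Against PBS, the medians were 0.03 with PFF+MLi-2 and -0.01 with PFF+Rab5 ASO. In the 3 comparisons with PFF the median of the listed promoters thus had the same sign as that of promoters in general.

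Stx1a had the smallest p among the leading promoters with PFF. Its percentiles were 95.9, 94.3 and 94.5 in PBS and 90.8, 87.4 and 90.7 in PFF, without overlap, and 94.6, 88.5 and 92.9 with PFF+MLi-2 and 89.9, 91.9 and 90.6 in PFF+Rab5 ASO. The difference of PFF from PBS was -0.50 ± 0.20 (SE) with an adjusted p of 0.466 by limma. Syt7, a slow, high-affinity calcium sensor, had 63.7, 69.6 and 66.5 in PFF and 78.6, 79.3 and 82.5 in PFF+Rab5 ASO, with 72, 69.4 and 73.9 in PBS. Its difference of PFF+Rab5 ASO from PFF was 0.59 ± 0.20 with an adjusted p of 0.128. Neither promoter passed the test.

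**Figure D2:**
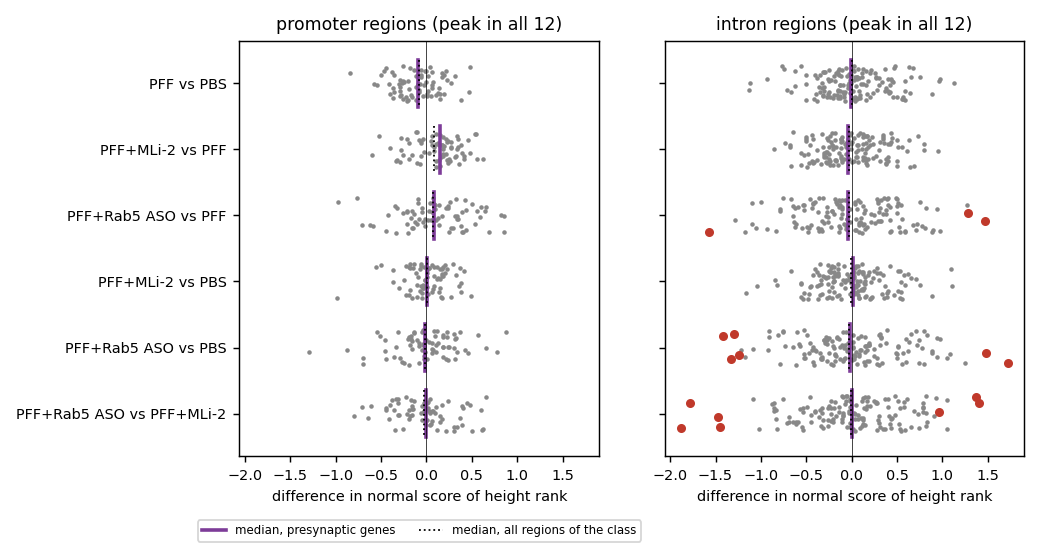
Difference in the normal score of height rank (horizontal axis) for promoter (left) and intron (right) regions of the listed genes that have a peak in all 12 libraries, in 6 comparisons. Points are regions, red points passed limma at adjusted p under 0.05, purple bars are medians of the listed regions and dotted lines are medians over all regions of that class; no promoter is red and the purple and dotted medians nearly coincide except for promoters in PFF+MLi-2 against PFF.

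The presence of peaks was compared next. A region counted as gained if a peak was found in all 3 libraries of the first-named group and in none of the other group, and lost in the reverse case, a description without a test. In at least 1 of the 6 comparisons, 81 of the 913 regions (8.87%) were gained or lost, where 8.02% of all regions were. Of these 76 lay in introns (10.6% of the listed introns, against 8.65% of all introns of protein-coding genes), 3 overlapped exons, 1 lay upstream and 1 was a promoter region. They belonged to 21 genes, with 15 at Erc2, 10 at Syn3, 9 at Syt1 and 5 each at Amph, Erc1 and Sv2b. The other 18 genes, Syn1, Vamp2, Stx1a and Unc13a among them, had none. The median summit of these 81 regions held 13 fragments, against 25 at the listed regions with a peak in every library.

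**Figure D3:**
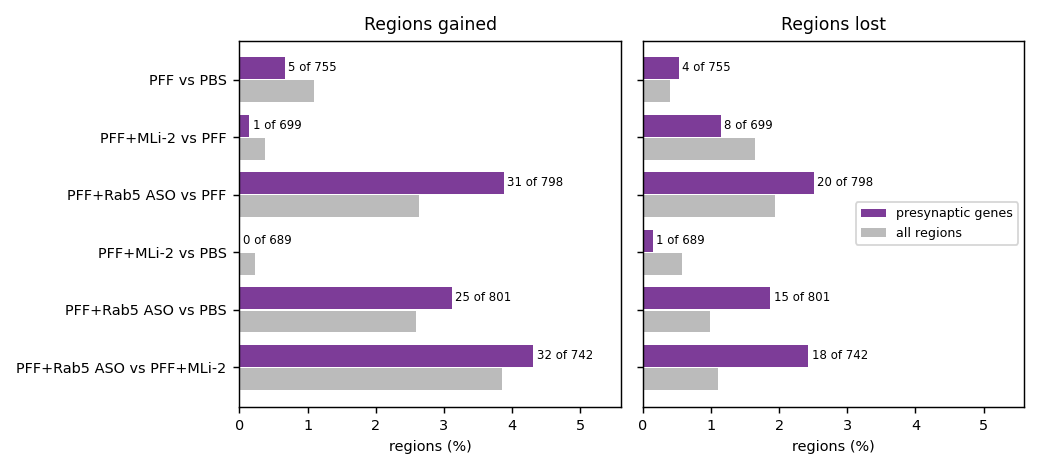
Share of regions gained (left) and lost (right) in 6 comparisons (horizontal axes, % of regions seen in any of the 6 libraries compared), for regions at presynaptic genes in purple and for all regions in grey. Numbers give gained or lost regions over regions compared; at presynaptic genes the largest shares belong to comparisons with PFF+Rab5 ASO.

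With PFF against PBS, 5 of 755 regions at listed genes were gained and 4 were lost. Over all regions, 1.10% were gained and 0.404% lost. When the lists were cut to equal numbers of top peaks, 6 of 642 listed regions were gained (0.935%) and 5 lost (0.779%), against 1.02% and 0.602% of all regions. Only Syn3 intron 25, Erc2 intron 69 and Erc2 intron 135 of the 9 regions described below then kept a peak in 3 libraries against 0. Gained regions lay at Erc2 (introns 69 and 23), Syn3 (intron 25), Erc1 (intron 16) and Vamp1 (an exon 13497 bp past the nearest transcript start), where regions are numbered along the chromosome within each gene and class. Erc2 and Erc1 encode ELKS scaffolds of the active zone. Erc2 intron 69 (chr14:28060954-28061161) had no peak in PBS, 36.4, 72.7 and 36.9 in PFF, 26.5 in PFF+MLi-2 replicate 1 alone, and 82.3, 92 and 92.6 in PFF+Rab5 ASO. It was therefore highest under the oligonucleotide. Erc2 intron 23 had 40.4, 21.1 and 41.3 in PFF, 7.12 and 41.5 in PFF+MLi-2 replicates 2 and 3, and 65.6, 16.2 and 68.2 in PFF+Rab5 ASO. The Vamp1 exon had 30, 21.1 and 31.1 in PFF and a single further peak, 39.3, in PFF+Rab5 ASO replicate 2.

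The other 2 regions gained with PFF were seen in no library outside that group. Syn3 intron 25 (chr10:86183295-86183491) had 32.9, 68.9 and 62.4 in PFF, and Erc1 intron 16 (chr6:119697105-119697287) had 8.56, 50 and 43.4. Over all regions, 0.202% had a peak in the 3 PFF libraries and in no other, against 0.219% (2 of 913) here. The Syn3 sequence is given on the gene's minus strand, chr10:86183283-86183483, as the strongest region that appeared with PFF alone, and the capitals mark 1 match to the AP-1 element TGANTCA.
Syn3 intron 25: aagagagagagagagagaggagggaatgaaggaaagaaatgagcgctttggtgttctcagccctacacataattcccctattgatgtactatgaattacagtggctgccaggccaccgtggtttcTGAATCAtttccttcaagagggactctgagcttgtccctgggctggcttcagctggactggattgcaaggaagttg

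Regions lost with PFF were Erc2 intron 135, Syn3 intron 41, Erc1 intron 14 and Rims2 intron 7. Erc2 intron 135 (chr14:28450699-28450986) had 45.7, 49.3 and 57 in PBS, no peak in PFF, 10.7, 35.8 and 38.2 with PFF+MLi-2, and 63.7, 16.2 and 66.9 in PFF+Rab5 ASO. It was the 1 listed region with a peak in the 9 other libraries and none in PFF (0.0140% of all regions). Erc1 intron 14 had 39.7, 29.9 and 17.7 in PBS, a single peak of 28.7 in PFF+MLi-2 replicate 2, and 54.9, 55.4 and 57.6 in PFF+Rab5 ASO. Syn3 intron 41 had 21.1, 34.8 and 38 in PBS and 9.64 in PFF+MLi-2 replicate 1. Rims2 intron 7 had 29.3, 49.3 and 7.62 in PBS and no peak elsewhere, the 1 listed region of its kind (0.0254% of all regions), while 0 listed regions had peaks in all libraries but those of PBS (0.0121% of all regions).

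With PFF+MLi-2 against PFF, 1 region was gained and 8 were lost of 699. Over all regions the shares were 0.374% gained and 1.64% lost. With equal numbers of top peaks the split was 2 gained and 3 lost of 624 (0.321% and 0.481%, against 0.712% and 1.07% of all regions). The gained region was Erc2 intron 135. The losses were Syn3 intron 25, Erc1 intron 16 and the Vamp1 exon, described above, and regions at Sv2b (2 regions), Pclo, Erc2 and Rims3. This comparison shares the 3 PFF libraries with that of PFF against PBS, so a region is not counted independently in both. Sv2b intron 18 had 48.8, 50 and 63.5 in PFF, no peak with MLi-2, 49.3 in PBS replicate 2 and 65.6 and 48.3 in PFF+Rab5 ASO replicates 1 and 2. Pclo intron 2 had 48.8, 56.6 and 5.10 in PFF and one further peak of 17.9 in PBS replicate 1. Erc2 intron 107 had 18.5, 32.2 and 33.6 in PFF and 17.9 in each of PBS replicates 1 and 2. The 8 lost regions were small, with 8 to 22 fragments at the summit.

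Against PBS, PFF+MLi-2 gained 0 regions and lost 1 (Rims2 intron 7) of 689, where the background was 0.226% and 0.577%. Equal lists gave 5 gained and 0 lost of 615, with 0.813% gained against 0.415% of all regions and a background of 0.465% lost. No listed region had peaks in the 3 PFF+MLi-2 libraries and no other (0.0194% of all regions), and none had peaks in all libraries but these (0.0543%).

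The oligonucleotide went with many more changes. With PFF+Rab5 ASO against PFF, 31 regions were gained and 20 lost of 798, where 2.63% of all regions were gained and 1.94% lost. The listed shares were 3.88% and 2.51%. All 31 gained regions were intronic, 5.02% of the listed introns compared against 2.65% of all introns of protein-coding genes, and 17 of the 20 lost regions were intronic, 2.75% against 2.36%. Of 122 promoter regions 0 were gained or lost, where 0.615% of promoters of all protein-coding genes were gained and 1.15% lost. The balance of gains and losses moved with list length. With equal numbers of top peaks per library the split was 18 gained and 18 lost of 667, or 2.70% each, against 2.51% gained and 2.44% lost over all regions. The listed share of gains over all classes was thus near the background at equal lists, and introns were not counted apart there. By role, the number of regions over all 12 libraries differed widely. The scaffolds, with 389, gained 12 and lost 10, and the sensors and priming factors, with 186, gained 8 and lost 2. The retrieval genes, with 36, gained 5, all at Amph, and lost 0, and the SNARE group, with 68, gained 3 and lost 1. The vesicle proteins, with 215, gained 3 and lost 6, and the transporters, with 19, gained 0 and lost 1.

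Against PBS, PFF+Rab5 ASO gained 25 regions and lost 15 of 801, or 3.12% and 1.87%, with backgrounds of 2.59% and 0.992%. Equal lists gave 17 gained and 22 lost of 675, or 2.52% and 3.26%, against 2.44% and 1.67% of all regions. Against PFF+MLi-2 it gained 32 and lost 18 of 742, or 4.31% and 2.43%, with backgrounds of 3.86% and 1.10%. Equal lists gave 14 gained and 22 lost of 650, or 2.15% and 3.38%, against 2.79% and 2.00% of all regions, so that the gains went from above to below the background. The 1 promoter region called in any comparison was in the last one, a second promoter region of Slc17a7 (chr7:45167848-45167955). It had 6.66, 20.2 and 1.19 in PFF+MLi-2, none with the oligonucleotide, 10.7 in PBS replicate 1 and 5.62 in PFF replicate 3. With promoters taken within 500 bp of a start, 0 promoter regions were gained or lost in any comparison.

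Of the listed regions, 12 had a peak in the 3 PFF+Rab5 ASO libraries and in none of the other 9 (1.31%, against 1.14% of all regions). They lay at Erc2 (4 regions), Unc13c (3), Amph (2), Ppfia2 (2) and Snap25 (1). In the reverse pattern, 6 regions had a peak in all 9 other libraries and none with the oligonucleotide (0.657%, against 0.183% of all regions), 3 at Syn3 and 1 each at Bsn, Sv2b and Syt1.

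**Figure D4:**
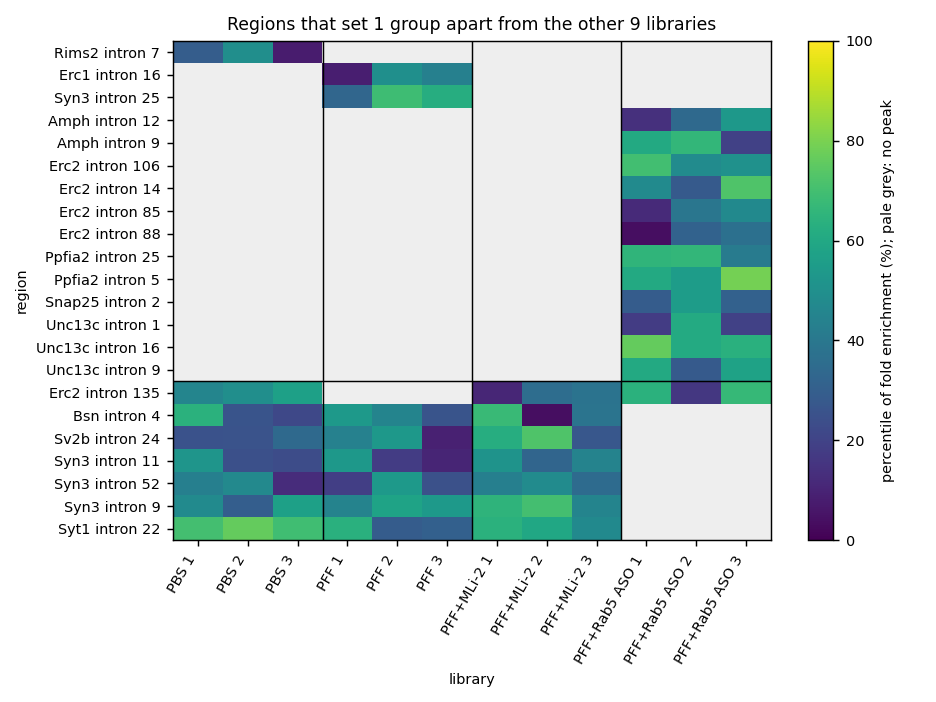
Percentile of fold enrichment (colour scale, %) of the 22 listed regions that set 1 group apart, in 12 libraries (columns); pale grey means no peak. Above the horizontal line are regions with peaks in a single group, 12 of them in PFF+Rab5 ASO, and below it regions absent from a single group, 6 of them from PFF+Rab5 ASO.

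Unc13c encodes Munc13-3, a priming factor best known from the cerebellum. Its intron 16 (chr9:73751450-73751635) had 76.4, 61.2 and 63.3 in PFF+Rab5 ASO and no peak elsewhere, and its introns 1 and 9 had 17.9, 61.2 and 19.2, and 60.7, 28.3 and 57.6. Ppfia2 encodes liprin-α2, an organiser of the active zone. Its intron 5 (chr10:106585226-106585328) had 60.7, 55.4 and 79 and its intron 25 had 65.6, 66.1 and 41.7, again with no peak in the other 9 libraries. The summits of Ppfia2 intron 5 held 14 to 20 fragments and those of Unc13c intron 16 held 15 to 20. The Unc13c sequence is shown as the highest region seen only under the oligonucleotide, on the minus strand of the gene, chr9:73751458-73751658, with a CAGATG E-box in capitals.
Unc13c intron 16: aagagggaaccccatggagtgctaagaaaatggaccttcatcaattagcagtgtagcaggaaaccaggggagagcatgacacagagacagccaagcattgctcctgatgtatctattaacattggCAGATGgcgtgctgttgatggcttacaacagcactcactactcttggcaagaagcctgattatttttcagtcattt

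Amph had 5 intronic regions gained against PFF, each with a peak in the 3 PFF+Rab5 ASO libraries. Intron 9 had 60.7, 66.1 and 19.2 and intron 12 had 13.8, 34 and 53.2, and these had no peak elsewhere. The remaining 3 also had a peak in 1 or 2 libraries of PBS or PFF+MLi-2. At Syt1, intron 48 had 60.7, 61.2 and 75.9 with the oligonucleotide beside 17.9 in PBS replicate 2 and 30.2 and 41.5 in PFF+MLi-2 replicates 1 and 3. Syt1 intron 45 had 52.1, 68.6 and 75.9 beside 39.7 in PBS replicate 1. Syt1 intron 12 had 48, 48.3 and 79 beside 54.8 and 17.7 in PBS replicates 1 and 3 and 28.7 and 21.1 in PFF+MLi-2 replicates 2 and 3. In all, 19 of the 31 gained regions were also seen in at least 1 PBS or PFF+MLi-2 library. Syn3 intron 6 (75.1, 74.8 and 71.4, with 48.8 in PFF replicate 1) was gained against PBS and against PFF+MLi-2. Unc13b intron 6 was gained against PFF+MLi-2 alone (69.7, 84.5 and 81.7, against 17.9 and 40.5 in PBS replicates 1 and 2 and 21.1 and 22.6 in PFF replicates 2 and 3).

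Among regions lost with the oligonucleotide, Syt1 intron 22 (chr10:108581077-108581474) had 70.3, 76.4 and 69.4 in PBS, 63.7, 29.1 and 30.8 in PFF, and 64, 59.6 and 47.4 in PFF+MLi-2. Syn3 intron 9 had 48, 29.9 and 57, then 44.7, 58.1 and 53.9, then 65.1, 70.3 and 45.2 in the same order. Sv2b intron 24 had 25.3, 25.5 and 34.4, then 43.9, 53.4 and 9.33, then 62.4, 72.4 and 27.2. None of these 3 had a peak in any oligonucleotide library. Bsn intron 4 likewise had a peak in the 9 other libraries, with 63.7, 26.1 and 21.6 in PBS, 53.6, 45 and 26 in PFF, and 67.9, 3.78 and 38.6 in PFF+MLi-2.

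The next losses were less complete outside the oligonucleotide group. Erc2 intron 30 had 24.5 and 12.3 in PBS replicates 1 and 3, 62.5, 60.8 and 64.8 in PFF, and 63.5, 53.1 and 31.7 in PFF+MLi-2. Erc2 intron 54 had 17.9 in PBS replicate 1, 61.3, 32.2 and 43.4 in PFF, and 39.9 and 16.8 in PFF+MLi-2 replicates 1 and 2. Erc2 thus had both gained and lost introns under the same treatment. Erc2 intron 37 (35.6, 29.9 and 58.8 in PBS, 53.4 and 29.2 in PFF replicates 1 and 2, 56.7, 55.4 and 51.5 in PFF+MLi-2) and Rimbp2 intron 21 (52.3, 38.1 and 43.7, then 58.6 and 39.7, then 57.2, 28.7 and 14.4, in the same libraries) missed 1 PFF library as well. Sv2c intron 15 had 39.7, 49.3 and 81.2 in PBS, 30 and 66.8 in PFF replicates 1 and 2, and 73 and 62.2 in PFF+MLi-2 replicates 1 and 3. Of the 20 regions lost against PFF, 18 were seen in at least 1 PBS or PFF+MLi-2 library.

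Regions open in all 12 libraries can be compared by the rank of their height. With PFF against PBS, 0 of 243 listed regions passed the test and 0% of all regions did. At an unadjusted p under 0.05 there were 24 listed regions (11 higher, 13 lower) and 7033 of 72408 in all. Values of the 2 groups did not overlap at 36 listed regions (14.8%), near the background of 15.1%. The 3 smallest p-values were at Syt1 intron 54 (48, 40.5 and 49.8 in PBS, 82.1, 77.4 and 72.2 in PFF), Rimbp2 intron 32 (73.7, 59.9 and 60 against 44.4, 26.6 and 19.5) and Syt7 intron 3 (2.60, 2.24 and 4.96 against 26.4, 38.1 and 25.7). Their differences were 1.13 ± 0.21, -1.13 ± 0.22 and 0.97 ± 0.22 (SE), with adjusted p-values of 0.218, 0.218 and 0.234 by limma. Rimbp2 encodes a protein that couples RIM scaffolds to calcium channels.

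With PFF+MLi-2 against PFF, 0 of 243 passed (0% of all regions), 21 had an unadjusted p under 0.05 (8279 of 72408 in all), and 35 did not overlap (14.4%, background 17.6%). The 3 smallest p-values were at Syp upstream 1 (51.9, 18.5 and 45.8 in PFF, 61.3, 58.4 and 66.1 with MLi-2), Snap25 intron 6 (91, 94 and 88.6 against 83.2, 73.9 and 78) and Rimbp2 intron 5 (51.8, 58.6 and 38.3 against 59, 67.2 and 65.2), with adjusted p-values of 0.299, 0.314 and 0.321 by limma. With PFF+MLi-2 against PBS, 0 of 243 passed (0% of all regions), 9 had an unadjusted p under 0.05 (4181 of 72408 in all) and 25 did not overlap (10.3%, background 10.3%). The smallest p-values were at Amph intron 1 (81.3, 56.2 and 75.4 in PBS, 30.2, 39.6 and 31.7 with MLi-2), Rims3 intron 7 (59.1, 37.4 and 36.3 against 62.2, 78.1 and 79) and Syt7 intron 3 (24.2, 19.8 and 44.8 with MLi-2), all at an adjusted p of 0.816 by limma. Syt7 intron 3 thus lay below 5 in the 3 PBS libraries and above 10 in the 9 others, without passing the test in any comparison.

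With PFF+Rab5 ASO, height rank calls appeared. Against PFF, 5 of 243 listed regions passed (2.06%), 4 higher and 1 lower, where 3.82% of all regions passed. Against PBS, 6 passed (2.47%, 2 higher and 4 lower; background 1.63%), and against PFF+MLi-2 9 passed (3.70%, 4 higher and 5 lower; background 3.01%). Values did not overlap at 67, 62 and 62 listed regions (27.6%, 25.5% and 25.5%), against 25.9%, 23.0% and 25.4% of all regions. In all, 13 regions at 10 genes were called, 10 in introns and 3 upstream. Leaving out any 1 of the 6 libraries left 0 to 3 calls against PFF, 0 against PBS and 0 to 4 against PFF+MLi-2. Over all 72408 regions it left 0 to 981, 0 to 29 and 0 to 602. With the replicate number as a block, 5, 0 and 4 listed regions passed, and 1668, 0 and 889 of all 72408 regions. The adjusted p-values of the 6 regions called against PBS were then 0.0739 to 0.0888 by limma. The smallest difference that passed in any of the 3 comparisons was -0.90, at Syp upstream 1. Larger ones missed the test elsewhere, as at Syt1 intron 54 with PFF against PBS (1.13) and Amph intron 1 with PFF+MLi-2 against PBS (-1.17). A difference that missed the test, as at the promoters, is therefore not shown to be absent.

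**Figure D5:**
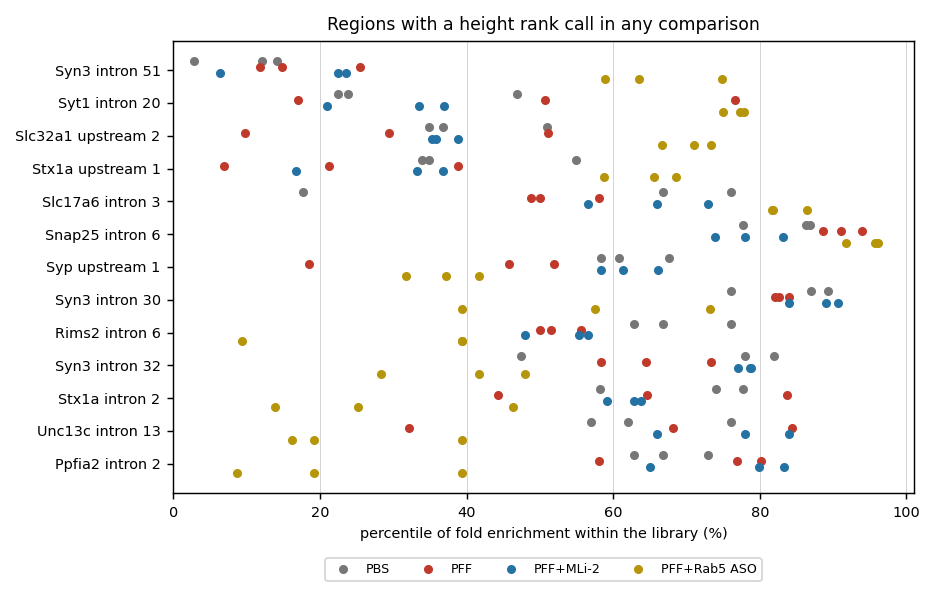
Percentile of fold enrichment within the library (horizontal axis, %) of the 13 listed regions whose height rank passed limma in at least 1 comparison. Each point is 1 library, coloured by group; PFF+Rab5 ASO libraries stand mostly to the right of the others in the 6 upper rows, from Syn3 intron 51 to Snap25 intron 6, and mostly to the left in the others.

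Among the regions that rose with the oligonucleotide, Syn3 intron 51 (chr10:86303128-86303352) passed in all 3 comparisons, which share the oligonucleotide libraries. Its percentiles were 14.1, 12.1 and 2.80 in PBS, 11.8, 14.8 and 25.5 in PFF, 23.5, 22.4 and 6.38 with PFF+MLi-2, and 63.5, 58.9 and 74.8 in PFF+Rab5 ASO. The 3 oligonucleotide values lay well above the other 9. The difference was 1.47 ± 0.25 (SE) against PFF, 1.72 ± 0.26 against PBS and 1.37 ± 0.26 against PFF+MLi-2, with adjusted p-values of 0.0218, 0.0273 and 0.0355 by limma. This region lies inside Syn3 but 274 bp downstream of the start of Timp3, an inhibitor of metalloproteinases encoded on the other strand, so the measurement belongs to both genes. It is printed on the minus strand, chr10:86303144-86303344, as a region called in all 3 comparisons, and none of the motifs searched occurs in it.
Syn3 intron 51: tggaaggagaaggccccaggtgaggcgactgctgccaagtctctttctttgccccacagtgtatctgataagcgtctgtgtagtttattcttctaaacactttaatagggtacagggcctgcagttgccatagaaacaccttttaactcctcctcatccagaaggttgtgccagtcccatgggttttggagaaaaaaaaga

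Syt1 intron 20 (chr10:108577389-108577952) had 23.9, 22.4 and 46.9 in PBS, 50.7, 76.7 and 17 in PFF, 33.5, 21 and 37 with PFF+MLi-2, and 77.3, 75 and 77.8 in PFF+Rab5 ASO. It rose against PBS by 1.48 ± 0.25 and against PFF+MLi-2 by 1.41 ± 0.21, with adjusted p-values of 0.0313 and 0.0256 by limma. The PFF values covered the range of both, and that comparison did not pass. The sequence, shown because Syt1 is the calcium sensor of fast release, is on the minus strand, chr10:108577642-108577842, is rich in A and T (33.8% G and C) and holds no match to the motifs searched.
Syt1 intron 20: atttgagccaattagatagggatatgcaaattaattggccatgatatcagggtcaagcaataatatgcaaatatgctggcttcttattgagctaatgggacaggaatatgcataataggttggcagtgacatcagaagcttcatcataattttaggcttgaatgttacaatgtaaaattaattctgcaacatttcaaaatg

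Transporter regions were also among those that rose. A region upstream of Slc32a1 (chr2:158606683-158607001, 3766 bp before the nearest start) had 51, 36.7 and 34.8 in PBS, 51.1, 29.4 and 9.74 in PFF, 35.9, 35.2 and 38.8 with PFF+MLi-2, and 66.7, 71 and 73.4 in PFF+Rab5 ASO. It rose by 1.30 ± 0.27 against PFF and 0.94 ± 0.20 against PFF+MLi-2 (adjusted p = 0.0356 and 0.0447 by limma). Slc17a6 intron 3 (chr7:51662481-51662816) had 76, 66.8 and 17.7 in PBS, 48.8, 50 and 58 in PFF, 73, 66 and 56.6 with PFF+MLi-2, and 81.8, 86.5 and 81.7 in PFF+Rab5 ASO, and it rose by 1.28 ± 0.22 against PFF (adjusted p = 0.0218 by limma). The 3 oligonucleotide values lay above the other 9 at both genes.

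A region 1174 bp upstream of Stx1a had 33.9, 34.8 and 54.9 in PBS, 21.3, 38.9 and 6.86 in PFF, 33.3, 36.7 and 16.8 with PFF+MLi-2, and 68.6, 58.8 and 65.5 in PFF+Rab5 ASO. It rose by 1.34 ± 0.26 against PFF (adjusted p = 0.0281 by limma). Snap25 intron 6 had 86.9, 77.7 and 86.4 in PBS, 91, 94 and 88.6 in PFF, 83.2, 73.9 and 78 with PFF+MLi-2, and 96.2, 95.8 and 91.8 in PFF+Rab5 ASO. Its rise was 0.96 ± 0.22 against PFF+MLi-2 (adjusted p = 0.0485 by limma). Snap25 and Stx1a encode the partners that pair with the vesicle SNARE on the plasma membrane.

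Of the regions that fell, Ppfia2 intron 2 (chr10:106509654-106510039) passed in all 3 comparisons. It had 72.9, 66.8 and 62.8 in PBS, 76.9, 80.1 and 58 in PFF, 65.1, 79.9 and 83.3 with PFF+MLi-2, and 8.69, 39.3 and 19.2 in PFF+Rab5 ASO. The oligonucleotide values lay below the other 9. The differences were -1.57 ± 0.30 against PFF, -1.42 ± 0.27 against PBS and -1.88 ± 0.30 against PFF+MLi-2, with adjusted p-values of 0.0277, 0.0370 and 0.0274 by limma. At the same gene, introns 5 and 25 had peaks only with the oligonucleotide, so the regions of Ppfia2 went in opposite directions. Unc13c showed the same contrast. Its intron 13 (chr9:73683684-73684026) had 76, 62 and 57 in PBS, 84.3, 32.2 and 68.2 in PFF, 83.9, 66 and 78 with PFF+MLi-2, and 39.4, 16.2 and 19.2 in PFF+Rab5 ASO. It fell by 1.25 ± 0.24 against PBS and by 1.78 ± 0.26 against PFF+MLi-2 (adjusted p = 0.0375 and 0.0246 by limma).

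Both sequences are given because these regions fell furthest, and each holds AP-1 elements in capitals. The Ppfia2 window (plus strand, chr10:106509878-106510078) has 1, and the Unc13c window (minus strand, chr9:73683734-73683934) has 2 and a CAGATG E-box, which reads as CATCTG on this strand.
Ppfia2 intron 2: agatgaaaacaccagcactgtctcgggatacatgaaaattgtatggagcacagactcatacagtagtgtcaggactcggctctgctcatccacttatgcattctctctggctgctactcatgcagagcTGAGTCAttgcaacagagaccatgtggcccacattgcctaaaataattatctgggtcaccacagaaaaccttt
Unc13c intron 13: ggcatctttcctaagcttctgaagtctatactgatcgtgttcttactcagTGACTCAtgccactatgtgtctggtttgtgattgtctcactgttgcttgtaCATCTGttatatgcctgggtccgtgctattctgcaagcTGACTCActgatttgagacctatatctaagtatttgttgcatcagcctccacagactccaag

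The remaining calls fell. Syn3 intron 32 had 81.9, 47.5 and 78 in PBS, 58.4, 64.4 and 73.3 in PFF, 77.1, 78.9 and 78.7 with PFF+MLi-2, and 48, 28.3 and 41.7 in PFF+Rab5 ASO, a difference of -1.47 ± 0.20 from PFF+MLi-2 (adjusted p = 0.0246 by limma). Syn3 intron 30 had 73.3, 39.3 and 57.6 with the oligonucleotide against 83.9, 90.6 and 89 with MLi-2, and Syp upstream 1 had 41.8, 31.7 and 37.2 against 61.3, 58.4 and 66.1. Their differences were -1.45 ± 0.28 and -0.90 ± 0.20 (adjusted p = 0.0355 and 0.0470 by limma). Syp encodes synaptophysin, an abundant vesicle membrane protein. Against PBS, Stx1a intron 2 (77.7, 58.2 and 74 in PBS, 13.9, 46.4 and 25.2 with the oligonucleotide) fell by 1.33 ± 0.28, and Rims2 intron 6 (76, 66.8 and 62.8 against 39.4, 39.3 and 9.37) fell by 1.30 ± 0.26, with adjusted p-values of 0.0464 and 0.0413 by limma. Within Syn3 and Unc13c, rises or gains and falls or losses therefore occurred side by side. At Stx1a the called rise was against PFF and the called fall against PBS.

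Motif matches were counted within 100 bp of the summit, on either strand. The GC box GGGCGG was in 28 of 39 leading promoters (71.8%, against 58.0% of leading promoter regions of all protein-coding genes), the CRE TGACGTCA in 3 (7.69%, against 2.94%; Syn1, Snap25 and Napa) and the E-box CACGTG in 1 (2.56%, against 7.72%; Napa). The RE1 pair was in 0, against 0.140%, and within 200 bp in 1, Syn1 (2.56%, against 0.238%). In the 148 introns open in all 12 libraries, TGANTCA was in 21 (14.2%, against 11.0% of such introns of all genes) and CAGATG in 45 (30.4%, against 25.4%), while GGGCGG was in 13 (8.78%, against 6.33%). Of the 31 introns gained with PFF+Rab5 ASO against PFF, TGANTCA was in 5 (16.1%) and CAGATG in 9 (29.0%). Of the 17 lost introns they were in 4 (23.5%) and 7 (41.2%), and over all introns in 11.9% and 24.1%. The RE1 spelling was loosened, and TGANTCA and CAGATG were added, after the data were seen, so their shares test nothing. These matches are a description of the letters in the windows.

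A separate list of 33 other presynaptic genes was counted in the same way, without a test between the lists. Of its regions, 6 were gained and 1 lost of 551 with PFF against PBS (1.10% and 0.404% of all regions), and 1 was gained and 6 lost of 521 with PFF+MLi-2 against PFF (0.374% and 1.64%). With PFF+Rab5 ASO against PFF, 24 were gained and 8 lost of 629 (2.63% and 1.94% of all regions). The height rank of 13 of 188 regions passed limma there (3.82% of all regions), 7 higher and 6 lower, at Cadps, Cadps2, Dnm3, Itsn1, Rab3b, Rab3c, Slc18a2, Stxbp5, Syt9 and Napg. Against PBS 5 of 188 passed, 2 higher and 3 lower (1.63% of all regions), and against PFF+MLi-2 8 of 188, 5 higher and 3 lower (3.01%). With PFF against PBS and PFF+MLi-2 against PFF, 0 of 188 passed limma, with 30 and 37 at an unadjusted p under 0.05, where 7033 and 8279 of 72408 regions were in all.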

How the data were processed

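ATAC-seq was measured in 12 libraries of cultured mouse cortical neurons, 3 in each of 4 groups taken from the sample titles and treatment labels. Free-text notes of the treated groups name PBS where the titles name PFF, and the titles were followed. Per the labels and the study's methods, the authors checked reads with FastQC, trimmed them with Trim Galore 0.6.7, aligned them with Bowtie2 2.5.1 to GRCm38 and called peaks in each library with MACS2 2.2.7.1. The deposited peak lists give each peak's fold enrichment over local background, a ratio, with its −log10 p and −log10 q. Whether duplicates were removed, reads shifted for the Tn5 cut, or a q threshold changed is not given in the sources used here, and each bears on peak width and number. No read counts were used, so depth is known only through the fragments at the summit, recovered from fold and −log10 p. They came out whole for 100% of peaks within 0.01 on the log10 scale.

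Peaks were merged at 1 bp of overlap and assigned to genes with GENCODE vM21. Of all peaks, 0.0752% lay outside the main chromosomes and were left out. A region's value in a library is the percentile of its fold among that library's own peaks. It moves with the length of the list: the median of the 148 listed introns found in all 12 libraries was 77.2 in PBS replicate 1 and 67.8 in PBS replicate 2, and that of all such introns 76.0 and 68.0. The highest peak is taken where a region holds several. Gained and lost regions were counted without a test, since an exact test of 3 against 3 libraries cannot go below 0.1. Height ranks, taken over the shared regions alone, were compared with limma 3.58.1 in R 4.3.3, on the 6 libraries of each comparison, with Benjamini-Hochberg adjustment over 72408 regions, and were tested on simulated data. Python 3.11.15 with pandas 2.3.3, numpy 2.4.6, scipy 1.17.1 and matplotlib 3.10.9 did the rest. Single values are given for regions that passed limma (at most 10 per comparison), for regions gained or lost (at most 5 per direction, by percentile), for the 3 smallest p-values where none passed, and for the highest and lowest leading promoter of each role. The genes, lists and rules were chosen with earlier results of these data known. The downstream element of the RE1 pair was loosened, and the AP-1 and CAGATG motifs were added, after seeing the data. The replicates are labelled biological, and all libraries belong to 1 batch. An item of a marker list is not reported here.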

Additional observations from a re-analysis of the deposited data

Results flagged for a closer look

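At 9 listed regions the effect of the Rab5 oligonucleotide against PFF differed from that of MLi-2 against PFF by limma on the difference itself, which equals the comparison of both treated groups with each other. The effect of the oligonucleotide was the higher at Syt1 intron 20 (difference 1.41 on the normal score scale), Syn3 intron 51 (1.37), Snap25 intron 6 (0.96) and Slc32a1 upstream 2 (0.94). It was the lower at Ppfia2 intron 2 (-1.88), Unc13c intron 13 (-1.78), Syn3 intron 32 (-1.47), Syn3 intron 30 (-1.45) and Syp upstream 1 (-0.90). No leading promoter was among them.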

How the results depend on the processing

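None of the 20 height rank calls reversed its direction under the alternatives run, nor did the 11 height rank results given for regions that did not pass, the Stx1a and Syt7 promoters included. Calls of a peak in at least 2 of 3 libraries against 0 of 3 numbered 41 (PFF against PBS, 2.65% gained and 2.78% lost of 755, against 4.32% and 2.47% of all regions), 46 (PFF+MLi-2 against PFF, 1.72% and 4.86% of 699, against 1.83% and 6.06%), 117 (PFF+Rab5 ASO against PFF, 8.77% and 5.89% of 798, against 6.62% and 5.69%), 32 (PFF+MLi-2 against PBS, 1.45% and 3.19% of 689, against 1.56% and 3.67%), 105 (PFF+Rab5 ASO against PBS, 7.74% and 5.37% of 801, against 6.73% and 3.94%) and 114 (PFF+Rab5 ASO against PFF+MLi-2, 10.5% and 4.85% of 742, against 9.33% and 3.54%). With equal numbers of top peaks there were 5 calls for PFF+MLi-2 against PFF and 5 for PFF+MLi-2 against PBS. For the latter, peaks with −log10 q of 3 or more gave 0 and merging at 50 bp gave 3. Leaving out 1 library gave, in the order above, 13 to 25, 17 to 22, 62 to 81, 6 to 16, 54 to 60 and 60 to 76 calls, since the rule then asks for fewer libraries. The lowest and highest were without PFF replicate 1 and PBS replicate 2, PFF replicates 2 and 3, PFF replicate 2 and PFF+Rab5 ASO replicate 2, PFF+MLi-2 replicate 1 and PBS replicate 2, PBS replicate 3 and PFF+Rab5 ASO replicate 1, and PFF+MLi-2 replicate 1 and PFF+Rab5 ASO replicate 2.

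Height rank calls of PFF+Rab5 ASO were 3 against PFF and 1 against PBS with ranks of −log10 q, where 1900 and 347 of all 72408 regions were called. With centred log2 folds they were 10 against PBS, where 2542 of all regions were called. The cause was not tested. Leaving out 1 library left 0 to 0 calls for PFF against PBS, PFF+MLi-2 against PFF, PFF+MLi-2 against PBS and PFF+Rab5 ASO against PBS. For PFF+Rab5 ASO against PFF it left 0 without PFF+Rab5 ASO replicate 1 or 3, and 2 or 3 otherwise. For PFF+Rab5 ASO against PFF+MLi-2 it left 4 without PFF+MLi-2 replicate 1 and 0 without any other library. Over all 72408 regions, 602 calls were left without PFF+MLi-2 replicate 1 there and 0 or 1 without any other library. Same-numbered replicates did not deviate together (correlation 0.0052 to 0.079), so the values do not show that the numbers pair the samples. The study's methods count a pregnancy as a replicate, and whether a number marks one is not given in the sources used here. With the replicate number as a block, the calls were 5 against PFF, 0 against PBS and 4 against PFF+MLi-2 (1668, 0 and 889 of all 72408 regions). For the 20 height rank calls at single regions, 108 results kept the call and 28 lost it under the other alternatives, and without 1 library 11 kept it and 109 lost it. The 11 results that had not passed stayed so. Of single gained or lost regions, 121 results held and 17 did not. Small summits, 13 fragments at the median gained or lost region, limit what a missing peak can say.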

Other observations

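Of the 913 listed regions, 19 lay within 1 kb of a transcript start of another gene, among them Syn3 intron 51 at Timp3, and their values belong to both genes.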
